A study of Mus musculus with 12 samples.

Results

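The mitochondrial respiratory chain subunits encoded in the mouse nucleus were taken as the genes whose symbol begins with Nduf, Uqcr, Cox4 to Cox8 or Atp5, together with Sdha, Sdhb, Sdhc and Sdhd, without the Ndufaf assembly factors and without symbols holding -ps. The rule gave 82 of the 34102 genes in the table. Complex I had 36 of them, complex II 4, complex III 8, complex IV 20 and complex V 14. Read counts came from RNA-seq of 12 libraries of C57BL/6 mice in 4 groups of 3. Cortex of Srsf10 flox/flox mice without Nestin-Cre (control) was compared with cortex of Srsf10 flox/flox mice carrying Nestin-Cre (cKO). All 6 cortex libraries therefore carry the floxed alleles, and Nestin-Cre, which is active in neural progenitors and their offspring, is present only in the cKO, so Cre and the loss of Srsf10 cannot be told apart. Primary neural progenitor cells (NPC) from cortex, genotype WT (control) or SRSF10 knockdown, were kept as suspension cultures with bFGF and EGF. Per the labels' protocol, lentivirus was added at a multiplicity of infection of 30, medium was changed at 24 h and RNA was taken at 72 h after infection. The labels give no age of the mice, no virus for the control cultures and no statement that replicates are separate animals, so p-values measure the spread between these samples, which may be technical. Totals ran from 26074094 to 36713205 counts per library.

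Srsf10 makes a splicing regulator of the serine and arginine rich family, and its whole-gene count did not separate the groups. On the CPM scale (counts relative to library size, scaled by the trimmed mean of M values, TMM), cortex controls held 198.3, 219.7 and 201.7 and cortex cKO 222.7, 187.2 and 223.8. NPC controls held 248.6, 227.2 and 223.1, and NPC labelled knockdown 239.1, 220.2 and 217.3. The log2 fold change of Srsf10 was 0.03 in cortex (SE 0.08, adjusted p = 0.917) and -0.05 in NPC (SE 0.05, adjusted p = 0.53). The labels do not say which part of the gene was deleted, so this count is no direct check of the deletion. It does not show the reduction that the knockdown label names. The group names below are therefore the labels of the libraries.

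The respiratory chain passes electrons from NADH (through complex I) and from succinate (through complex II) to ubiquinone, on through complex III and cytochrome c, and to oxygen at complex IV. Proton pumping by complexes I, III and IV drives complex V, the ATP synthase. Progenitors are known for a strong use of glycolysis and neurons for a strong dependence on oxidative phosphorylation. The complexes are built from subunits of both genomes, and the nuclear genes are known targets of nuclear respiratory factor 1 (NRF1), of ETS family factors and of YY1.

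The promoters were searched for the full palindromic NRF1 site (the run in capitals in the lines below, which reads the same on both strands), in the 250 bases before and the 50 bases after each RefSeq start (GRCm38.p6). Of the 82 genes, 67 were matched to a promoter, and 5 of these (7.5%) held the site, against 1.07% of 27025 promoters of the same length. All 5 are shown. Among them Cox6a1 fell in NPC, and Uqcrc1 had the largest difference in cortex but did not pass an adjusted p of 0.05 there. Atp5g2, Atp5k and Ndufa11 passed it in neither system. The other genes that passed it in NPC (Cox6b2, Ndufv3, Ndufb10, Ndufa1, Ndufa13 and Sdha) were matched to a promoter and held no such site. Each line gives 30 bases, 5′ to 3′ on the strand of the gene, with the NRF1 site in capitals.
Atp5g2 (c ring of complex V; chr15:102671070-102671099, minus strand): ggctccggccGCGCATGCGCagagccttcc
Atp5k (subunit e of complex V; chr5:108434430-108434459, minus strand): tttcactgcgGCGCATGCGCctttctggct
Cox6a1 (subunit 6a of complex IV; chr5:115349101-115349130, minus strand): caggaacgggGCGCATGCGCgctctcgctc
Ndufa11 (membrane arm of complex I; chr17:56717692-56717721, plus strand): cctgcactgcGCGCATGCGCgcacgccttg
Uqcrc1 (core protein 1 of complex III; chr9:108936668-108936697, plus strand): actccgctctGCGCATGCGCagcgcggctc
The flanks on either side differ between the 5 genes. Sites of YY1 (AAGATGGC or its reverse complement GCCATCTT) were in 13.4% of matched members and 3.19% of all promoters, those of ETS factors (ACTTCCGG or CCGGAAGT) in 7.5% and 4.31%, and those of nuclear receptors (AAGGTCA or TGACCTT) in 11.9% and 5.38%. Sp1 boxes (GGGCGG or CCGCCC) were in 40.3% and 38.2%, and CCAAT boxes (ATTGG or CCAAT) in 43.3% and 41.06%. The NRF1 site shares no fixed overlap with the other motifs, a match is only these letters in this window, and the members were not compared with other groups of genes of like base composition.

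In cortex most subunit genes were slightly lower in cKO, and no single one passed the test. Of 78 tested members 0 were called at an adjusted p under 0.05 (edgeR's quasi-likelihood test, Benjamini-Hochberg over all genes), against 0.171% of all 15781 genes tested. At an unadjusted p under 0.05 there were 4 members (5.13%, against 10.9% of all genes), and all 4 were lower in cKO, among them Ndufab1, Uqcrb and Uqcrc1. DESeq2 called 1 member, Uqcrc1, against 2.14% of all genes. A log2 fold change below 0 was found for 70 of 78 members (89.7%, against 49.3% of all genes), with a median of -0.08, against 0.00 over all genes. The groups did not overlap for 6 members (7.69%, against 17.3%), namely Ndufab1, Sdha, Uqcrc1, Uqcrb, Atp5g2 and Atp5h.

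That common shift rested on 1 library. Control replicate 1 held the highest level of the 6 cortex libraries for 70 of 78 members, whereas it was highest for 25% of all genes tested. Its members stood at a median of 0.20 above the control mean, on the log2(CPM + 0.5) scale. Control replicates 2 and 3 stood at -0.13 and -0.06, and the 3 cKO libraries at -0.15, -0.09 and 0.01, within or close to the range of those 2 controls. Without control replicate 1 the median log2 fold change turned to 0.03, and 32 of 78 members were below 0. Across all genes with at most 1.5 kb of merged exons, 2007 in cortex, the same library also stood highest, with a median of 0.12, against -0.09 to 0.04 in the other 5. Markers of red blood cells summed to 46.8 CPM in it and to between 8.70 and 17.2 in the others, and choroid plexus markers to 4.18 against 19.9 to 1242. Between the groups, oligodendrocyte lineage markers summed to 307 to 326 CPM in controls and 267 to 270 in cKO, without overlap. Of these 7 markers 6 were below 0 and 1 was called, Gpr17 (log2 fold change -0.79, adjusted p = 0.0213). Whether any of these takes part in the level of the subunit genes was not tested.

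**Figure D1:**
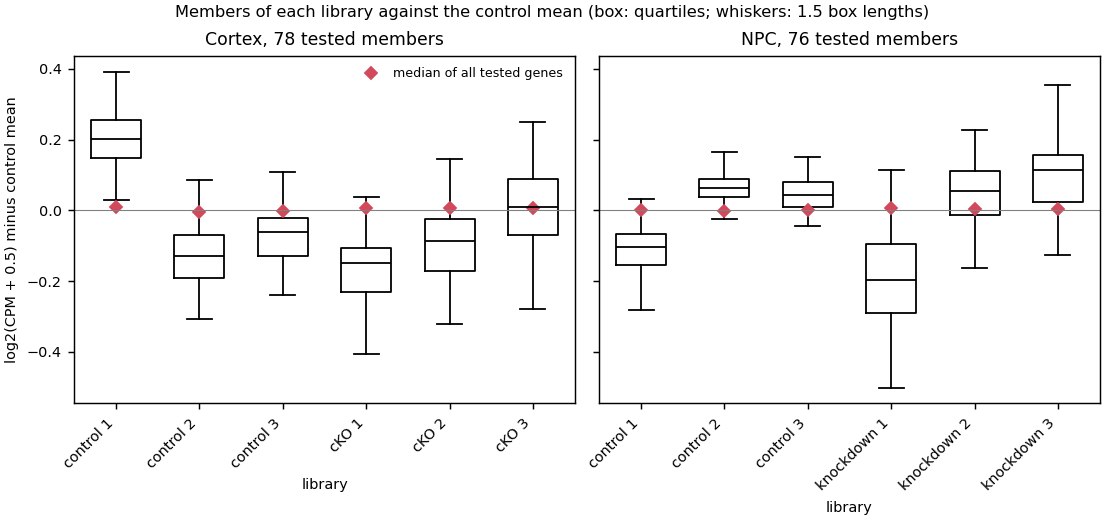
Box plots of the tested members in each library, as log2(CPM + 0.5) minus the mean of the 3 control libraries of that system; diamonds mark the median over all genes tested. The box of cortex control 1 lies above 0 with a median of 0.20, the boxes of NPC control 1 and NPC knockdown 1 lie below 0 with medians of -0.10 and -0.20, and the diamonds stay near 0.

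In NPC a small set of subunit genes moved within the same-numbered pairs of cultures, mostly downwards, while the pairs differed in the direction of the group as a whole. With the replicate number as a block, 7 of 76 tested members were called (9.21%, against 24.7% of all 14258 genes). Cox6b2, Cox6a1, Ndufv3, Ndufb10, Ndufa1 and Ndufa13 fell and Sdha rose. The median log2 fold change over the 76 was -0.01, against 0.00 over all genes, and 43 of 76 were below 0 (56.6%, against 49.3%). At an unadjusted p under 0.05 there were 15 (19.7%, against 35.8%). Members lower in all 3 pairs numbered 21 (27.6%, against 26.6% of all genes), and members higher in all 3 pairs numbered 11 (14.5%, against 27.2%). The groups did not overlap for 5 (6.58%, against 23.4%): Ndufv3, Ndufb10, Sdha, Sdhb and Cox6b2. Without the replicate block 0 of 76 were called, against 1.89% of all genes, with 5 at an unadjusted p under 0.05. Left out in turn, pair 1 gave 9 calls, pair 2 gave 4 and pair 3 gave 3, of 76 tested members each time. Of all genes tested, those fits called 30.4%, 15.2% and 11.4%. Cox6b2 and Cox6a1 were called each time. Sdha was not called without pair 2 (adjusted p = 0.233) or pair 3 (0.0668), Ndufv3 not without pair 3 (0.0579), Ndufb10 not without pair 2 (0.0592), and Ndufa1 and Ndufa13 in none of the 3 (0.0514 to 0.222).

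The pairs themselves went different ways. In pair 1, 59 of 76 members were lower in the knockdown library than in its control, with a median difference of -0.08. In pair 2, 43 were lower, with a median of -0.02. In pair 3, 25 were lower and 51 higher, with a median of 0.05. Knockdown replicate 1 held the lowest level of the 6 NPC libraries for 59 of 76 members, against 23.7% of all genes, and knockdown replicate 3 the highest for 36, against 12.4%. In complex III all 8 genes were lower in pair 1 and 7 of 8 were higher in pair 3. In the NPC comparison the 41 members above 1.5 kb had a median log2 fold change of 0.02 and the 35 shorter ones of -0.05. Over all genes tested the medians were 0.00 and 0.01. Spearman's rho between exon length and log2 fold change was 0.27 across the 76 members and -0.01 across all genes. In cortex it was -0.27 across the 78 members and 0.11 across all genes, so the relation had the opposite sign there. These are descriptions across genes that share the same libraries.

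**Figure D2:**
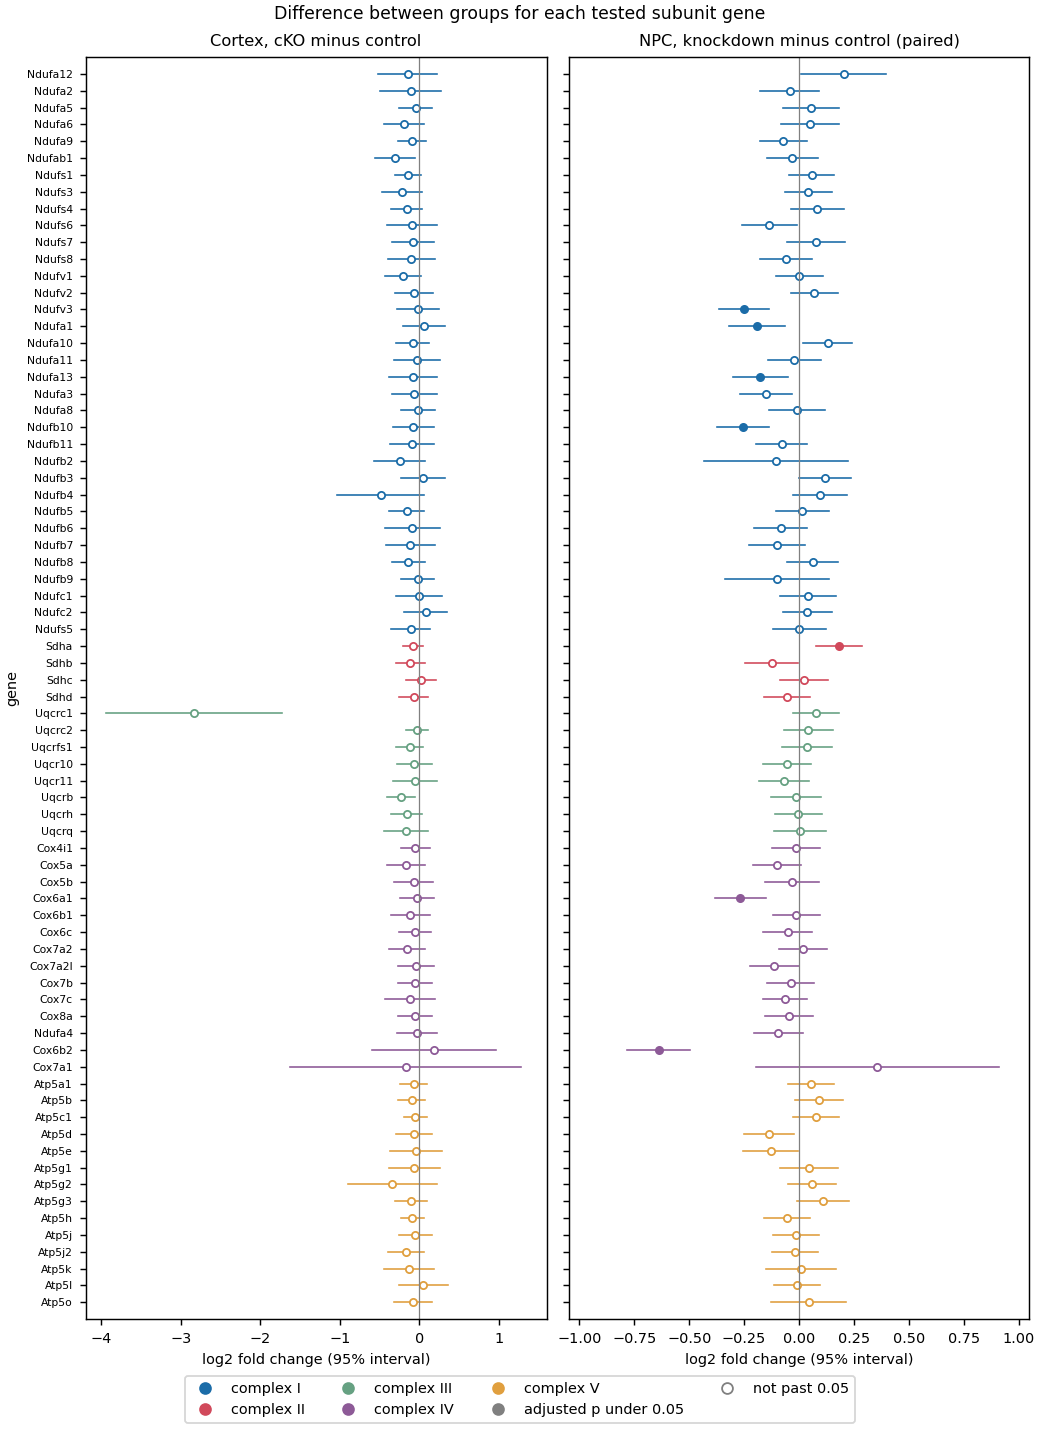
Log2 fold change of each of 74 members tested in both systems, with its 95% interval, coloured by complex; filled points passed an adjusted p of 0.05, and the axes of the panels differ. In cortex Uqcrc1 stands alone at -2.83 with an open point, and in NPC the 7 filled points are Cox6b2, Cox6a1, Ndufv3, Ndufb10, Ndufa1, Ndufa13 and Sdha.

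Complex I (NADH dehydrogenase) has a matrix arm, which takes electrons from NADH, and a membrane arm, which pumps protons. In NPC labelled knockdown, 4 of its 36 tested members fell (11.1%, against 12.8% of all genes called lower) and 0 rose, 1 in the matrix arm (of 17) and 3 in the membrane arm (of 19). All 4 encode accessory subunits rather than the electron-carrying core. Ndufv3, the small accessory subunit of the flavoprotein module, held 72.1, 76.1 and 84.5 CPM in controls and 60.4, 64.6 and 71.0 in knockdown. Every knockdown library was below every control, and the log2 fold change was -0.25 (95% interval -0.36 to -0.14, adjusted p = 0.00369). Ndufb10, of the membrane arm, held 84.7, 91.2 and 85.2 CPM in controls and 69.4, 73.5 and 76.0 in knockdown. These groups did not overlap either, and the log2 fold change was -0.25 (-0.37 to -0.14, adjusted p = 0.00415). Ndufa1, a membrane arm subunit encoded on the X chromosome, went from 43.73, 49.97 and 53.06 CPM to 36.34, 44.70 and 47.78, lower in each pair though the groups overlapped (log2 fold change -0.19, adjusted p = 0.0308). Ndufa13, also known as GRIM-19, went from 101, 122 and 116 CPM to 82.8, 105 and 113, and its drop in pair 3 was only 0.04 on the log2 scale (log2 fold change -0.18, adjusted p = 0.04). Its exons overlap those of Tssk6 on the opposite strand over 30.0% of their length and whether the counting used strand is not stated.

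The 6 core subunits of the matrix arm described here did not pass the test in either system. In NPC, Ndufv1, which binds NADH, had a log2 fold change of 0.00, and Ndufv2 beside it 0.07. The iron-sulphur subunits Ndufs1, Ndufs7 and Ndufs8 had 0.06, 0.08 and -0.06. Ndufs3, near the quinone site, had 0.04. All 6 lay between -0.06 and 0.08, with standard errors of 0.05 to 0.06. In cortex the same 6 lay between -0.22 (Ndufs3) and -0.07 (Ndufs7 and Ndufv2). Ndufab1, the mitochondrial acyl carrier protein, held 55.9, 48.1 and 44.9 CPM against 35.1, 44.7 and 40.6 in cKO (log2 fold change -0.31, unadjusted p = 0.0234, adjusted p = 0.363). The cKO values of Ndufab1 were all below the controls, at 44.7 against 44.9 CPM at the closest. In the matrix arm 16 of 16 tested members were below 0 in cortex, with a median of -0.12. In the membrane arm 16 of 19 were, with a median of -0.08. Of all genes 49.3% were below 0, and the common shift of the members rested on cortex control replicate 1, as given above.

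Other members of complex I at the ends of the range did not pass the test. In NPC the highest fold changes were 0.20 for Ndufa12 (adjusted p = 0.119), 0.13 for Ndufa10 (0.0883) and 0.12 for Ndufb3 (0.146). Ndufa12 held 55.6, 54.4 and 53.5 CPM in NPC controls and 72.3, 48.7 and 69.8 in knockdown, so that pairs 1 and 3 rose and pair 2 dropped. In cortex Ndufb2 and Ndufs3 had -0.25 and -0.22, and Ndufc2, Ndufa1 and Ndufb3 had 0.08, 0.06 and 0.05, the highest of the members with at least 5 CPM. Ndufa1 was thus 1 of few members above 0 in cortex and 1 of the 4 that fell in NPC, and the difference between its 2 effects was not past the threshold (interaction -0.24, SE 0.15, adjusted p = 0.439).

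Complex II (succinate dehydrogenase) is the only complex with no subunit of the mitochondrial genome. In NPC its flavoprotein rose while its iron-sulphur partner did not. Sdha, which binds FAD and oxidises succinate, held 450, 472 and 496 CPM in NPC controls and 498, 549 and 562 in knockdown. Each knockdown library lay above each control, and each pair rose, by 0.14, 0.22 and 0.18 on the log2 scale (log2 fold change 0.18, 95% interval 0.08 to 0.29, adjusted p = 0.0137). Sdhb, which carries electrons from Sdha to the membrane, held 141, 146 and 145 CPM in controls and 117, 141 and 139 in knockdown. Its groups did not overlap either, in the other direction, but most of the difference came from pair 1 (-0.27, against -0.05 and -0.06), and it did not pass the test (log2 fold change -0.12, unadjusted p = 0.0464, adjusted p = 0.132). The membrane anchors Sdhc and Sdhd had 0.02 and -0.05 (adjusted p = 0.787 and 0.463).

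In cortex none of the 4 genes of complex II passed the test, with adjusted p from 0.642 to 0.95. Sdha held 210, 196 and 200 CPM in controls and 193, 189 and 191 in cKO, without overlap but with a difference of only -0.08 on the log2 scale. Sdhb, Sdhc and Sdhd had -0.11, 0.02 and -0.07. The effect on Sdha in NPC minus that in cortex was 0.28 (SE 0.08, adjusted p = 0.0552). DESeq2 placed this difference below 0.05, as did the fit without cortex control replicate 2. In the other alternatives, all edgeR fits, it was not past 0.05, with adjusted p from 0.062 to 0.209.

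**Figure D3:**
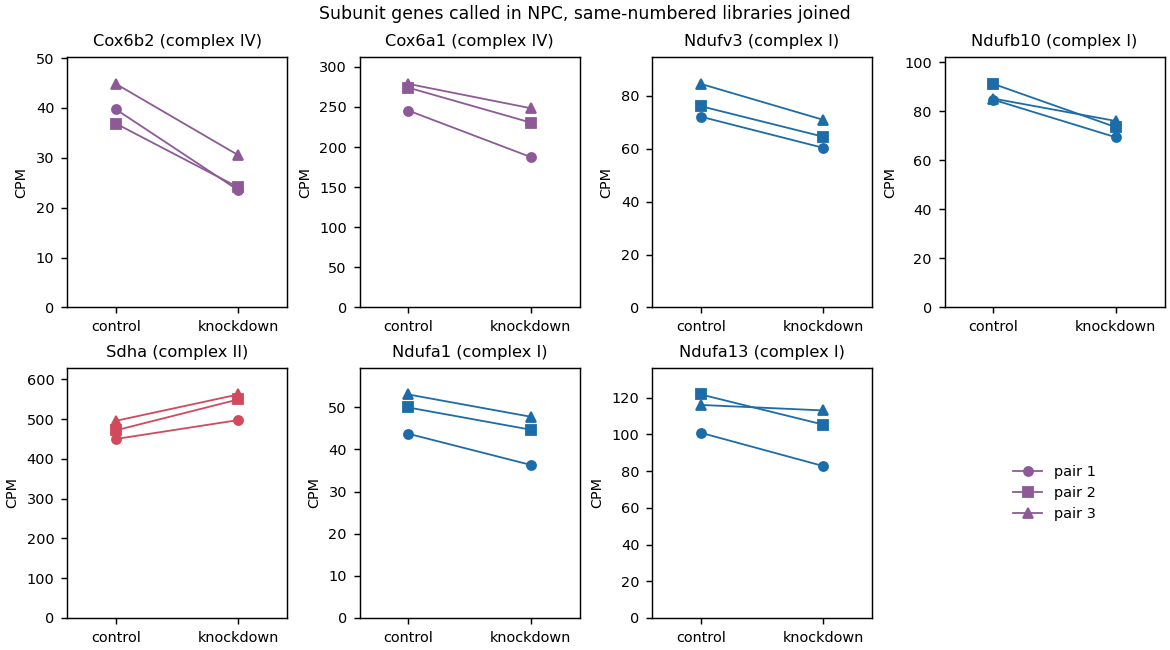
Level in CPM of the 7 subunit genes called in NPC, control on the left and knockdown on the right of each panel, with same-numbered libraries joined and each axis starting at 0. All 3 lines fall for the 6 genes that were lower and rise for Sdha, and the step of Ndufa13 in pair 3 is the shallowest.

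Complex III (ubiquinol-cytochrome c reductase) held the largest difference of all members, in Uqcrc1 in cortex. Uqcrc1 encodes core protein 1 (chr9:108936633-108949623, plus strand, mm10). Its raw counts were 158, 75 and 387 in cortex controls and 24, 24 and 36 in cKO, or 4.40, 2.31 and 10.6 CPM against 0.733, 0.699 and 0.982. Every cKO library was below every control, and the controls themselves were widely spread. Its log2 fold change of -2.83 had an SE of 0.50 and an interval from -3.95 to -1.72 (95%; unadjusted p = 0.000184, adjusted p = 0.0706), so it did not pass the main test. It did under DESeq2 (adjusted p = 3.8e-07), without the filter on low counts (0.000653), in 1 fit of all 12 libraries (0.023) and without control replicate 2 (0.0103). Over all alternatives its adjusted p ran from 3.8e-07 to 0.367, the latter without cKO replicate 1. These counts are small for this gene. NPC held between 7540 and 10241 counts of Uqcrc1 in every library, and its partner core protein, Uqcrc2, held 180, 164 and 168 CPM in cortex controls and 168, 160 and 173 in cKO. The CPM of Uqcrc1 in control NPC was 52.7 times that in control cortex, and the CPM of Uqcrc2 1.29 times. Whether both systems were counted with the same annotation is not stated, so this ratio of counts is not shown to be one of RNA amounts. No other annotated gene overlaps the exons of Uqcrc1, and 0.0% of its 50-base stretches occur in another gene, as counted on annotated transcripts.

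The other members of complex III moved little. Uqcrc2 had a log2 fold change of -0.03 in cortex and 0.04 in NPC, and Uqcrfs1, the Rieske iron-sulphur protein, -0.12 and 0.04. Uqcrb held 81.7, 74.3 and 74.8 CPM in cortex controls and 63.7, 64.7 and 68.5 in cKO, without overlap (log2 fold change -0.23, unadjusted p = 0.0143, adjusted p = 0.31). Of its 50-base stretches 25.4% occur in other genes, with up to 16.0% in a single processed pseudogene. In NPC, Uqcrb had -0.01. All 8 members were below 0 in cortex (median -0.14), against 49.3% of all genes. The common shift of the members there rested on control replicate 1, as given above. In NPC 4 of 8 were below 0 (median 0.00) and 0 were called. The smallest adjusted p in NPC were those of Uqcrc1 (0.08, adjusted p = 0.292) and Uqcr11 (-0.07, adjusted p = 0.395).

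Complex IV (cytochrome c oxidase) has several subunits made from alternative genes, a general form and forms known from muscle, lung or testis. In NPC labelled knockdown 2 of its 14 tested members fell (14.3%, against 12.8% of all genes called lower) and 0 rose. A log2 fold change below 0 was found for 12 of 14, against 49.3% of all genes. The pairs differed: 13 of 14 were lower in pair 1, 11 in pair 2 and 7 in pair 3, with median differences of -0.14, -0.07 and 0.00. Cox6b2, known as the testis form of subunit 6b (chr7:4751792-4753094, minus strand), held 39.7, 36.9 and 44.8 CPM in NPC controls and 23.5, 24.1 and 30.5 in knockdown. The groups were well apart, the pairs dropped by 0.74, 0.60 and 0.55 on the log2 scale, and the fold change of -0.64 (95% interval -0.78 to -0.49, adjusted p = 2.08e-05) was the largest among members in NPC that passed the test. Without the replicate block its adjusted p was 0.0544. Cox6b1, the general form of the same subunit, held 229, 268 and 272 CPM in controls and 217, 270 and 279 in knockdown (log2 fold change -0.01, adjusted p = 0.898). Per kb of merged exons, Cox6b2 stood at 36.5 ± 3.64 CPM in NPC controls and Cox6b1 at 362 ± 33.8 (SD, n = 3). In cortex Cox6b2 was close to absent, at 0.753 to 1.16 CPM over the 6 libraries.

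Cox6a1, the general form of subunit 6a, held 245, 274 and 279 CPM in NPC controls and 188, 230 and 248 in knockdown. It was lower in each pair, by 0.39, 0.25 and 0.17, although knockdown replicate 3 lay above control replicate 1 (log2 fold change -0.27, 95% interval -0.38 to -0.15, adjusted p = 0.00267). Of its 50-base stretches 9.2% occur in other genes. In cortex it had -0.03 (adjusted p = 0.927). The muscle form, Cox6a2, had at most 5 counts in any NPC library and 7 to 40 in cortex.

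The large nuclear subunits of complex IV did not pass the test. Cox4i1, which contacts the catalytic core, had log2 fold changes of -0.05 in cortex and -0.02 in NPC. Cox5a had -0.17 and -0.10, and Cox5b -0.07 and -0.03. Cox7a2 had -0.15 in cortex and 0.02 in NPC, and Cox7a2l, the supercomplex factor, -0.04 and -0.11 (adjusted p = 0.134). Cox7b, Cox8a and Ndufa4 lay between -0.09 and -0.03 in both systems. The tissue forms other than Cox6b2 were scarce: Cox8c had 0 counts in all 12 libraries, Cox8b at most 3 counts, Cox7b2 at most 6 counts, and Cox4i2 at most 27. Cox7a1, the muscle form of subunit 7a, held 1.25, 1.45 and 2.03 CPM in NPC controls and 1.95, 2.33 and 1.75 in knockdown (adjusted p = 0.355). Ndufa4l2, a relative of Ndufa4 known to be induced by hypoxia, held 1.53 to 3.21 CPM in cortex, with overlapping groups (log2 fold change -0.28, adjusted p = 0.786), and at most 6 counts in NPC. Markers of skeletal or heart muscle summed to at most 8.14 CPM in any library.

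Complex V (ATP synthase) holds a catalytic head, F1, on a stalk and a membrane part with the rotating c ring. None of its 14 members was called in either system. The F1 subunits in NPC are given as values. Atp5a1, Atp5b and Atp5c1 were above their control in each pair: Atp5a1 (alpha) had a log2 fold change of 0.05, Atp5b (beta, the catalytic subunit) 0.09, and Atp5c1 (gamma) 0.08, with adjusted p of 0.468, 0.218 and 0.272. Atp5d and Atp5e were below it in each pair: Atp5d (delta) had -0.14 (unadjusted p = 0.0241, adjusted p = 0.0818) and Atp5e (epsilon) -0.13 (unadjusted p = 0.0433, adjusted p = 0.126). Atp5d held 191, 212 and 203 CPM in controls and 163, 190 and 200 in knockdown, and Atp5b held 1823, 1856 and 1892 against 1850, 2044 and 2048. Without pair 1 Atp5b, Atp5g1, Atp5g3 and Ndufa10 were called, all higher in knockdown, in a fit that called 30.4% of all genes.

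The 3 genes of the c ring encode the same mature protein behind different import signals. Atp5g1, Atp5g2 and Atp5g3 had log2 fold changes of 0.05, 0.06 and 0.11 in NPC (adjusted p = 0.648, 0.45 and 0.179). In cortex they had -0.06, -0.34 and -0.10. Atp5g2 held 2.62, 2.56 and 2.48 CPM in cortex controls and 1.62, 2.18 and 2.24 in cKO, without overlap but from 53 to 94 counts (adjusted p = 0.662), and 36.7% of its 50-base stretches occur in other genes. Atp5o, the OSCP subunit of the stalk, had -0.08 in cortex and 0.04 in NPC. Atp5j2 had the smallest p of complex V in cortex (-0.17, unadjusted p = 0.139), and Atp5l the only value above 0 there (0.05).

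**Figure D4:**
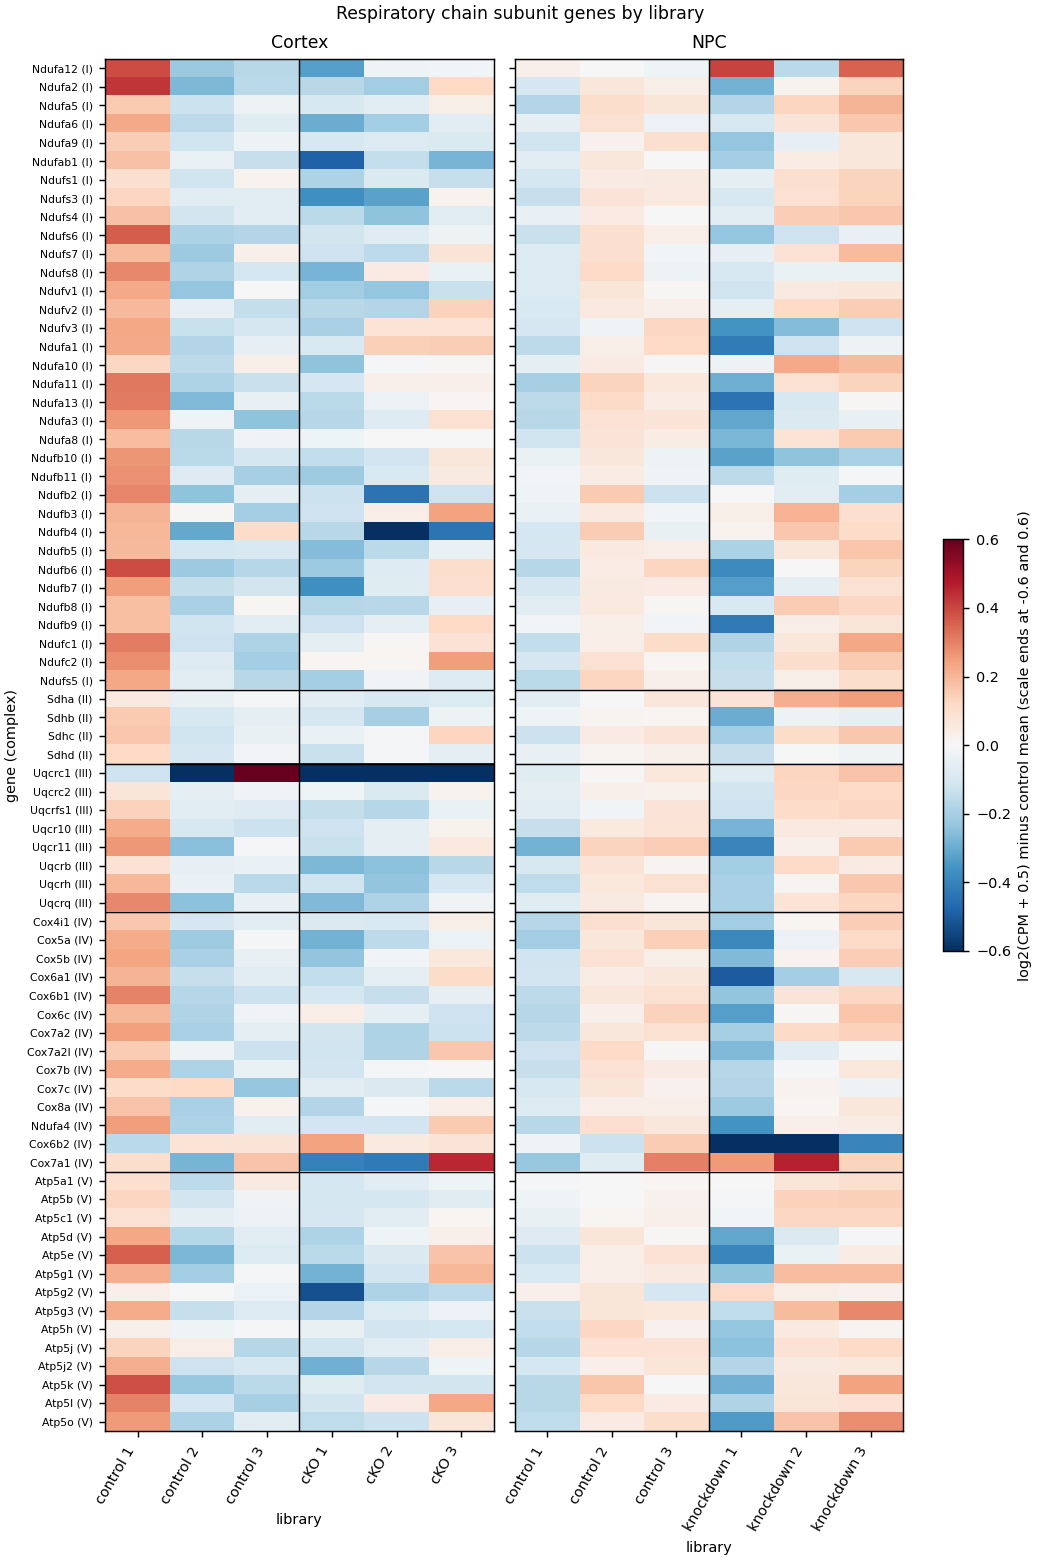
Heat map of 74 members tested in both systems, rows ordered by complex I to V, columns the 12 libraries, colour the log2(CPM + 0.5) minus the control mean of that system. Cortex control 1 is red in nearly all rows, NPC control 1 and knockdown 1 are mostly blue, and the Uqcrc1 and Cox6b2 rows stand out in cortex and NPC respectively.

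Whether the effect differed between the systems was tested in 1 fit of all 12 libraries, as the NPC difference minus the cortex difference. Of 79 tested members 2 were called, against 5.05% of all 16569 genes. Uqcrc1 had 2.93 (SE 0.57, adjusted p = 0.0119), from -2.83 in cortex, on the small counts above, and 0.08 in NPC. Cox6b2 had -0.81 (SE 0.20, adjusted p = 0.0381), from 0.19 in cortex at about 1 CPM and -0.64 in NPC. At an unadjusted p under 0.05 there were 9 members (11.4%, against 19.1% of all genes). Among terms above 0 the next were 2.48 for Ndufa7 (adjusted p = 0.376), which rests on 2 counts in cortex, and 0.60 for Ndufb4 (0.125). The other terms at the low end were -1.34 for Cox4i2 (0.532) and -0.32 for Ndufa4l2 (0.872). The term of Uqcrc1 was not past 0.05 without NPC pair 2 (adjusted p = 0.0558). That of Cox6b2 was not past it without the replicate block (0.119), without cortex control replicate 1 (0.0663), without any 1 cKO library (0.0571 to 0.108) or without any 1 NPC pair (0.0951 to 0.114).

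Levels per kb of merged exons placed complexes IV and III above complex I in both systems. Merged exons join all annotated exons of a gene, as in the 6.88 kb of Ndufab1 and the 5.63 kb of Ndufb2. The length of the transcripts present was not measured, so levels can be too low where it is shorter. In control cortex the median member with at least 1 CPM held 91.4 CPM per kb in complex IV, 82.1 in III, 69.3 in V, 48.9 in II and 43.2 in I. Control NPC held 137, 134, 93.8, 94.8 and 50.8. The highest single genes in control cortex were Cox6b1 (309 ± 57.9 CPM per kb, SD, n = 3), Atp5a1 (253 ± 23.5), Cox6a1 (238 ± 30.6), Atp5b (224 ± 19.1) and Cox4i1 (197 ± 19.9). Each of these differed from its neighbour in the order by less than the sum of their SDs. In control NPC they were Cox8a (495 ± 23.9), Atp5b (438 ± 8.07), Atp5a1 (431 ± 3.48), Cox6a1 (379 ± 25.6) and Cox6b1 (362 ± 33.8). Cox8a stood above the others by more than the sum of SDs, while Atp5b and Atp5a1, and Cox6a1 and Cox6b1, did not differ beyond their spread.

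Set side by side in the controls, 50 of the 73 members with at least 1 CPM in both systems were within 2-fold of each other. The median log2 ratio of cortex over NPC across these 73 was -0.64, so most of them had the higher CPM in NPC. A few stood far from the rest. The sources do not say whether both systems were counted with the same annotation, so the same limit holds for all ratios here, and no test was made. TMM scaling was done within each system, so the CPM of cortex and NPC were not scaled to each other. Among members with at least 1 CPM in the higher system, over 5-fold higher in NPC were Ndufa7, Atp5g2 (79.2-fold), Uqcrc1 (52.7-fold), Cox6b2 (44.6-fold), Cox7c (33.7-fold) and Ndufb4 (14.5-fold). Over 5-fold higher in cortex were Ndufb9 (7.06-fold), Ndufb2 (7.20-fold), Atp5o (7.59-fold) and Ndufa4l2 (20.7-fold). Ndufa7, an accessory subunit of complex I, had 2 counts in all 6 cortex libraries together and between 2173 and 2930 in each NPC library. Its neighbours on chromosome 17 showed the same: Kank3 had 1 to 11 counts in cortex and 220 to 386 in NPC, Rps28 (a ribosomal protein) 0 to 10 and 3608 to 4972, and Cd320 0 to 6 and 406 to 554. The neighbours of Atp5g2 did not: Gm4544 had 30 to 68 counts in cortex and 17 to 34 in NPC, and Mir688 0 to 3 and 0. Neighbours of the other genes in these lists were not examined. Cox7c, Ndufb4 and Atp5g2 share 22.1%, 18.3% and 36.7% of their 50-base stretches with other genes. Exons of Ndufb9 and Atp5o overlap other genes on the same strand over 19.5% and 12.3% of their length. Those of Atp5o also overlap genes on the opposite strand over 35.6%, and whether the counting used strand is not stated. The part of shared sequence and overlap in these differences was not tested.

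**Figure D5:**
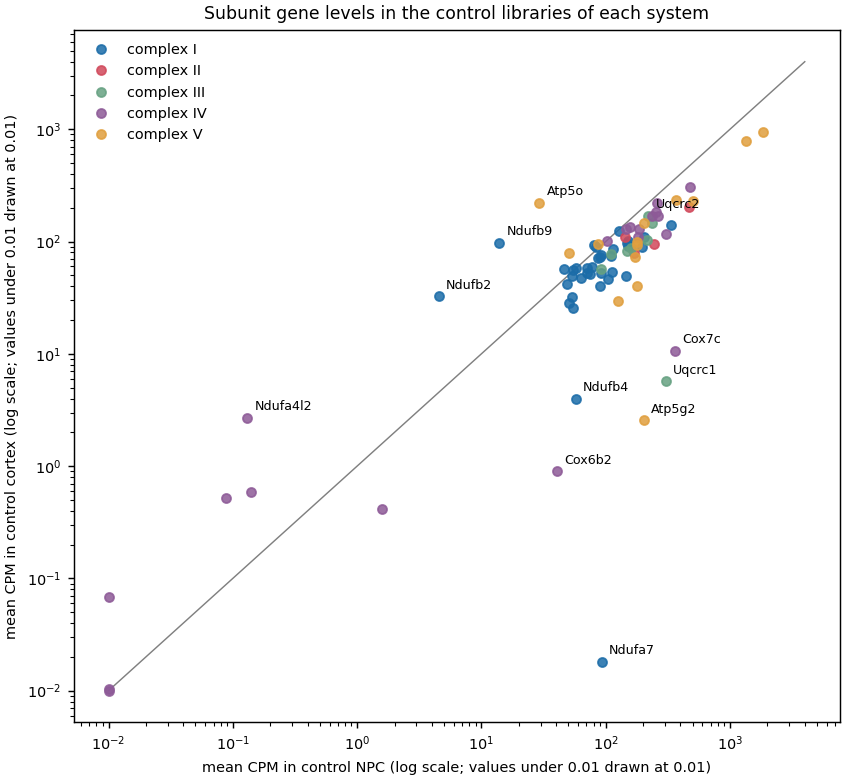
Mean level of each of the 82 members in the 3 control cortex libraries against the 3 control NPC libraries, both in CPM on log axes, coloured by complex; the line marks equal levels. Most points lie near the line, more of them below it (higher in NPC) than above it. Ndufa7, Atp5g2, Uqcrc1, Cox6b2, Cox7c and Ndufb4 lie far below it and Ndufb9, Ndufb2, Atp5o and Ndufa4l2 above it.

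Of the assembly factors tested in NPC, 3 of 16 for complex I rose, 1 of 10 for complexes II and III, 3 of 22 for complex IV, and 1 of 5 for complex V, and 0 fell. All genes tested were called higher at 11.9% and lower at 12.8%. Foxred1 (complex I assembly) had a log2 fold change of 0.35 (adjusted p = 0.000487), Cox15 (haem A synthesis) 0.29 (0.00328), Sdhaf3 (maturation of Sdhb) 0.34 (0.0391) and Atpaf1 (F1 assembly) 0.33 (0.0105). Of the electron carriers and ubiquinone synthesis genes 4 of 15 rose and 0 fell, with Coq3 at 0.33 (adjusted p = 0.0137) and Etfa at 0.18 (0.0243). Cyc1, the cytochrome c1 of complex III, had -0.03 (adjusted p = 0.701). Of the 14 genes of the tricarboxylic acid cycle, to which Sdha also belongs by function, 5 rose and 0 fell: Idh2 (0.30, adjusted p = 0.00176), Suclg2 (0.24), Fh1 (0.22), Sucla2 (0.18) and Suclg1 (0.20).

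Regulators and glycolysis were mixed. Of 13 regulators of mitochondrial biogenesis 2 rose and 1 fell in NPC. Ppargc1a, the coactivator PGC-1 alpha, held 97.6, 104 and 128 CPM in controls and 119, 143 and 145 in knockdown (log2 fold change 0.31, adjusted p = 0.00211), and Gabpb2 had 0.44 (0.00192) and Esrrb -0.41 (0.00847). Nrf1 itself had 0.16 (adjusted p = 0.0671). Of 15 genes that maintain or express the mitochondrial genome 0 rose and 1 fell, Mterf3 (-0.18, adjusted p = 0.0355). Of 19 glycolysis genes 2 rose and 3 fell. Hk1, the hexokinase bound to mitochondria, held 185, 168 and 197 CPM in controls and 112, 96.0 and 112 in knockdown (log2 fold change -0.78, adjusted p = 4.43e-07), and Pfkp had -0.44 (0.000239). In cortex 0 genes of any of these lists were called, and the table held 0 of the 13 subunits of the mitochondrial genome. Without the replicate block 1 of these genes was called in NPC, of glycolysis. Beside these NPC values, astrocyte markers (6 genes, 3 called higher and 1 lower) summed to 1983 to 2055 CPM in controls and 2152 to 2384 in knockdown. Vessel markers summed to 15.9 to 20.2 and 9.56 to 11.1, a drop carried by Flt1 (log2 fold change -1.14, adjusted p = 5.29e-06), while Kdr and Pecam1 had 0.02 and 0.66. Neuronal markers summed to 1021 to 1129 CPM and 1082 to 1335, nearly all of it Map2. Progenitor markers summed to 9265 to 9592 and 9016 to 10833. Of these 7 markers Nes was called higher (log2 fold change 0.21, adjusted p = 0.0198) and Sox2 lower (-0.50, adjusted p = 8.49e-05). Oligodendrocyte lineage markers summed to 2810.5 to 2881.7 CPM in controls and 2927.2 to 3003.6 in knockdown, without overlap. Of those 7 markers 6 were above 0, and 1 was called, Pdgfra, which was lower (-0.58, adjusted p = 0.000977). The part of these marker lists in the subunit values was not tested. In these bulk samples fewer cells of a type and less RNA per cell cannot be told apart.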

How the data were processed

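The deposited table held whole-number read counts per gene, made by the authors. Alignment used HISAT2 and the build mm10, per the submitters' processing notes; the sources used here give no counter, annotation or use of strand. Totals were 26074094 to 36713205 counts per library, and no library was a copy of another. Genes were kept with edgeR's filterByExpr, scaled by TMM and tested with the quasi-likelihood test (edgeR 4.0.16, R 4.3.3), with Benjamini-Hochberg adjustment over all genes. Cortex was fitted alone. NPC was fitted with the replicate number as a block: deviations of same-numbered libraries from their group means correlated at 0.48, 0.50 and 0.44, and at -0.34 to -0.084 between other numbers. In cortex same-numbered libraries gave -0.16 to 0.022, so no block was used. Intervals are 95%. Alternatives were DESeq2 1.42.0, other scalings, no filter, 1 fit of all libraries, and each library or pair left out. Fits were tested on simulated data with changes planted in genes of at least 5 CPM. Of planted 1.5-fold changes, 62.7% were recovered in cortex and 100% in NPC. Of planted 2-fold changes, 97% and 100% were. False calls made up 7.49% of calls in cortex and 7.41% in NPC, above the 0.05 of the threshold. The 2 systems thus differed in the size of change that could be called. Exon lengths, overlaps and 50-base stretches shared with other transcripts came from GENCODE release 21 of the mouse, and promoters from RefSeq. Named genes were the core subunits, the isoform pairs, the members with the smallest p per complex, the 5 largest and 5 smallest fold changes with at least 5 CPM, and the 3 most extreme interaction terms of either sign; Atp5h, Atp5l, Cox7c, Ndufb9 and other genes at the ends of a count were named after their values were seen. The members and lists were chosen with earlier results of these data known. Counting error alone limits genes with few counts. The values of 1 member are not reported here, though it is counted with its group.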

Additional observations from a re-analysis of the deposited data

Results flagged for a closer look

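Uqcrc1 was singled out because its effect differed between the systems: the log2 fold change in NPC minus that in cortex was 2.93 (adjusted p = 0.0119, edgeR's quasi-likelihood test). All 3 cortex cKO libraries (24, 24 and 36 counts) were below all 3 controls (158, 75 and 387), while NPC held 7540 to 10241 counts. Whether cortex and NPC were counted with the same annotation is not stated.

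Cox6b2 was singled out for the same reason, with a difference of -0.814 (adjusted p = 0.0381). It dropped in 3 of 3 NPC pairs and held 27 to 38 counts in each cortex library.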

How the results depend on the processing

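The counts of called members depended on the fit. In cortex 0 were called in the main fit, and also with RLE size factors, total counts, the replicate block and sex as a covariate. Exactly 1, Uqcrc1, was called with no count filter, with DESeq2, in 1 fit of all libraries and without the libraries rich in Ttr; 4 had an unadjusted p under 0.05, an alternative chosen after seeing the data, as were 15 in NPC and 9 for the interaction. Leaving out single cortex libraries gave 0 to 1 calls and medians from -0.158 to 0.0285, the latter without control replicate 1; the cause was not tested. In NPC the 7 called members became 2 in 1 fit of all libraries (Cox6b2 and Sdha) and 0 with no replicate block, which also took the calls over all genes from 3522 to 270. DESeq2 called 5. Leaving out single pairs gave 3 to 9. For the interaction the 2 called members became 1 with no replicate block and 4 with DESeq2, which added Ndufb4 and Sdha, and 0 to 4 without single libraries or pairs. With the replicate block in cortex the calls over all genes went from 27 to 1. No called value changed sign in any of these. Over all genes, calls in cortex numbered 156 with no count filter, 338 with DESeq2, 153 in 1 fit of all libraries, 12 with sex as a covariate, and 0 to 28 without single libraries. In NPC they numbered 1582 in 1 fit of all libraries and 1636 to 4376 without single pairs. For the interaction, 836 became 242 with no replicate block, 1398 with DESeq2, and 271 to 945 without single libraries or pairs.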
